A study of Caenorhabditis elegans with 12 samples.

Results

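The sites described here are the ELT-2 peaks of *Caenorhabditis elegans* L3 larvae that lay far from any listed H3K4me3 peak. They were chosen by the distance between summits: a peak was taken where its summit was 50 kb or more from every H3K4me3 summit on its chromosome. This rule gave 269 of the 624 listed ELT-2 peaks, of which 152 were on chromosome X and 117 on the autosomes, and 355 peaks remained. The study used chromatin immunoprecipitation followed by sequencing (ChIP-seq) on whole larvae of the wild-type strain N2 at the L3 stage, raised at 25 °C and harvested 24 to 26 h after feeding. The groups used are the ELT2 ChIP (3 libraries, monoclonal antibody 455-2A4) and the H3K4me3 ChIP (2 libraries, antibody from WAKO), each represented by 1 list of peaks. Whole larvae mix all tissues, so a site in the ELT-2 list and a site in the H3K4me3 list need not have been occupied in the same cells. No value belonged to a single library. The spread between replicates and the read depth are therefore unknown, and every error below covers counting or the spread among peaks only.

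ELT-2 is a zinc finger protein of the GATA family that is made in the worm intestine and binds DNA at GATA motifs in front of many genes of digestion and defence. H3K4me3, trimethylated lysine on histone H3, sits at the promoters of transcribed genes in any tissue. Chromosome X of the hermaphrodite is known to carry few genes that are active in the germline. A peak score is the peak caller's own measure of how strongly a site stood out. None of the sources used here states its scale. Scores were compared only within the ELT-2 list, where the lowest was 30.04 and the median 43.8. All positions are in the ce10 build, count from 1 and are given with the peak's start and end. No gene annotation or sequence of that build was used here, so no site is assigned to a gene.

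The distant peaks made up most of the ELT-2 list on X and a minority of it elsewhere. On X they were 152 of 159 ELT-2 peaks (95.6%), where the H3K4me3 list held only 14 summits. On V they were 53 of 132 (40.2%), on IV 24 of 96 (25.0%), on II 29 of 125 (23.2%), on III 7 of 44 (15.9%) and on I 4 of 68 (5.88%). Since the rule used these positions, the shares are given without a test. Ground lying 50 kb or more from H3K4me3 covered 93.3% of the span of X, taken from the first to the last listed peak, and 27.1% of the autosomal spans. Within that ground ELT-2 peaks stood at 9.43 per Mb on X and 5.27 per Mb on the autosomes, beside 6.0 and 5.82 per Mb for the remaining peaks in the rest of the X and autosomal spans.

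**Figure D1:**
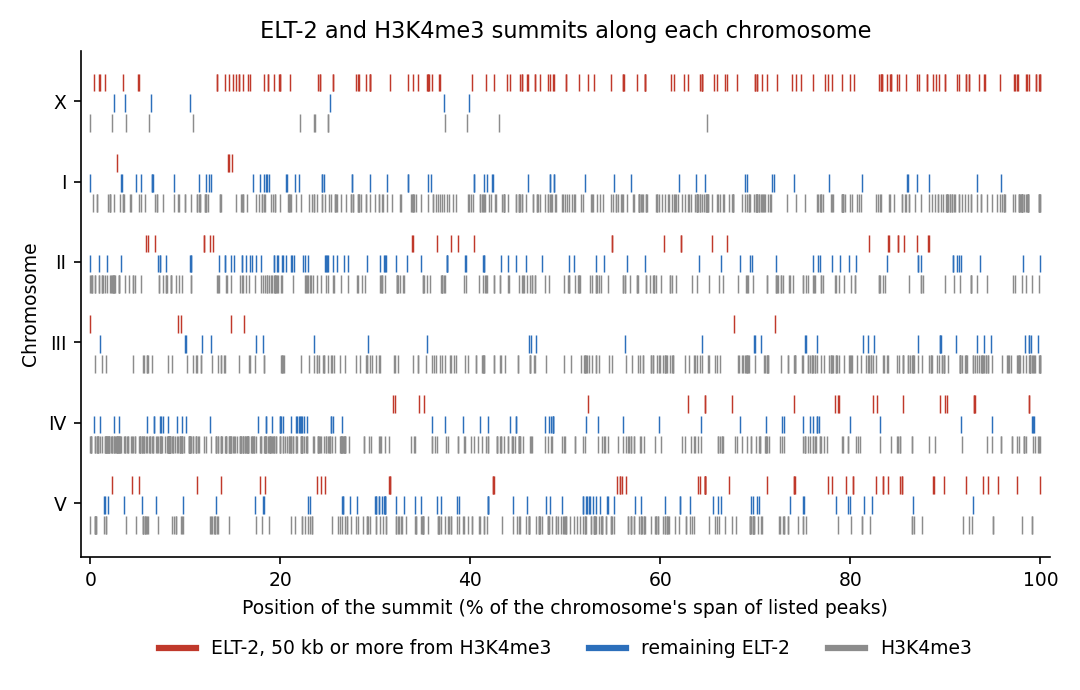
Summits along each chromosome, as a percentage of the span from the first to the last listed peak on it; each tick is 1 summit of a distant ELT-2 peak (top row of each chromosome), a remaining ELT-2 peak (middle row) or a H3K4me3 peak (bottom row). The 152 distant peaks on X run to the right end of the chromosome, beyond the last of its 14 H3K4me3 summits, while 115 of the 117 on the autosomes lie between H3K4me3 summits.

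Along X the distant peaks grew denser to the right. When the span was cut into 3 equal parts, 39 lay in the left part (25.7%), 50 in the middle part (32.9%) and 63 in the right part (41.4%). Of the 14 H3K4me3 summits on X, 10 lay in the left part, 4 in the middle part and 0 in the right part. On the autosomes 31 distant peaks lay in the left part, 32 in the middle part and 54 in the right part (46.2%), against 155, 104 and 89 of the 348 remaining autosomal peaks. Chromosome IV gave 16 of its 24 distant peaks to its right part, and 256 of its 410 H3K4me3 summits were in its left part. On V the right part held 26 of the 53 distant peaks and 43 of the 247 H3K4me3 summits. All 4 distant peaks of chromosome I were in its left part. The rule itself favours distant peaks where H3K4me3 summits are few and remaining peaks where they are many. The counts by part are therefore no separate result, and they were not tested.

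Distances to H3K4me3 differed in scale between X and the autosomes. On X the median distance was 907 kb and the range was 56748 bp to 6071059 bp. On the autosomes the median was 93564 bp and the range was 50134 bp to 403760 bp. The remaining peaks had a median of 15622 bp. On the autosomes 65 of the 117 lay between 50 and 100 kb from H3K4me3, 33 between 100 and 200 kb, and 19 farther. On X 13 lay between 50 and 100 kb, 12 between 100 and 200 kb, and 70 were 1 Mb or more away. The 3 farthest on X started at 17675786, 17674916 and 17644617, with distances of 6071059, 6070282 and 6039760 bp and scores of 33.22, 32.74 and 36.95. The 3 farthest on the autosomes were all on V. They started at 18577439, 17352829 and 2324318, with distances of 403760, 387377 and 278483 bp and scores of 129.01, 105.54 and 47.05.

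**Figure D2:**
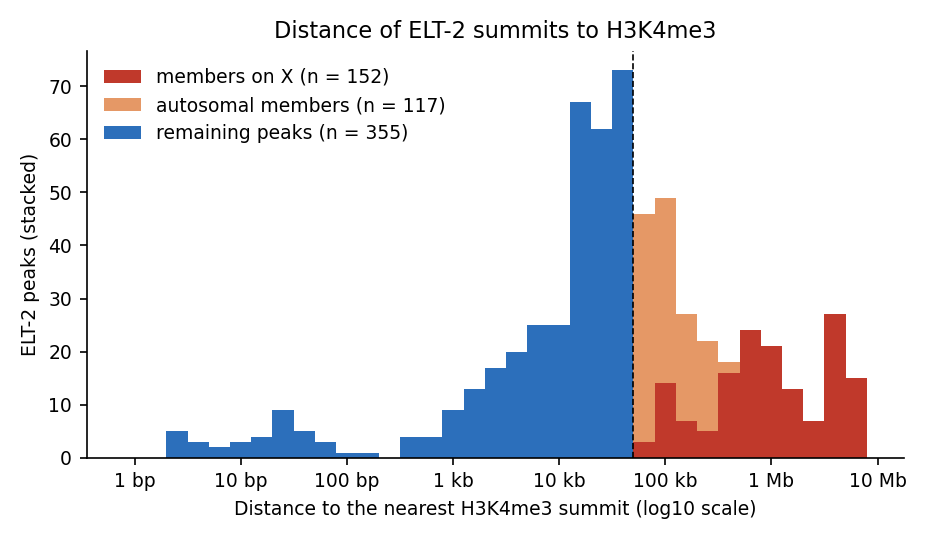
Number of ELT-2 peaks by the distance of their summit to the nearest H3K4me3 summit (log10 axis), stacked by class, with a dashed line at the limit of 50 kb. Autosomal distant peaks end at 404 kb, and those on X reach 6071 kb.

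The limit cut through a continuous range of distances. Just inside it, 3 peaks on IV and 1 on V lay between 50134 and 50927 bp. The nearest to the limit, on IV from 14414234 to 14414520, scored 97.35. The others scored 35.66, 57.23 and 36.04. Just outside it were a peak on II from 8266542 to 8266888 with a score of 129.91 at 49766 bp, and one on II from 3984276 to 3984583 with a score of 35.14 at 49357 bp.

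The ground between neighbouring H3K4me3 summits, or beyond the outermost one, is called a stretch here. On X all 152 distant peaks lay in 9 stretches. The longest ran from the last H3K4me3 summit, at 11605013, to the last ELT-2 peak at the right end of X. It was 6.07 Mb long and held 65 distant peaks with a median score of 38.2. No H3K4me3 summit was listed to its right, so distances there were measured to 1 side only. The next stretch, from 7823786 to 11605013, was 3.78 Mb long and held 35 peaks with a median score of 49.0. The stretch from 4712697 to 6841315 was 2.13 Mb long and held 20, among them the highest score of the distant peaks on X. The stretch from 2242484 to 4191177 was 1.95 Mb long and held 19 with a median score of 40.2. The other 5 stretches on X held 1 to 4 distant peaks each, 13 in all.

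On the autosomes the 117 distant peaks were spread over 60 stretches, and 30 of these held a single one. Of the 117, 2 lay beyond the outermost H3K4me3 summit of their chromosome, 1 at the left end of III and 1 at the right end of V. Only some of the gaps that could hold such a peak did so: of 214 autosomal stretches of at least 100 kb with a H3K4me3 summit at each end, 58 contained a distant peak. The longest of the 58, on V from 16965636 to 17870508, was 905 kb long and held 7 distant peaks with a median score of 47.5 and a highest score of 106. A stretch on V from 13130203 to 13468569 held 6 and one on V from 11402118 to 11705209 held 5. On II, the stretch from 12768072 to 13157352 also held 5. The last 3 are named for their counts, after these were seen.

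The peak names carry running numbers that rise along every chromosome, to 16058 in the H3K4me3 list. If these number a longer list from which the deposited one was drawn, the numbers missing between neighbouring H3K4me3 summits count the peaks left out of each stretch, whatever their score. On that reading the stretches on X and on the autosomes were unlike. The 58 autosomal stretches with a summit at each end lacked 2570 numbers over 17.8 Mb, or 144 per Mb, where autosomal stretches without a distant peak lacked 182 per Mb. The 8 such stretches on X lacked 124 numbers over 9.75 Mb, or 12.7 per Mb, where X stretches without a distant peak lacked 40.1 per Mb. Between 2 summits, only a stretch of at least 100 kb can hold a distant peak. That length was reached by 214 of 1543 such autosomal stretches and 11 of 13 on X. Stretches with and without distant peaks are thus unlike by the rule itself, and their values were not tested against each other. The median over stretches with a distant peak was 24.7 missing numbers per Mb on X and 129 on the autosomes. Every peak takes the value of its stretch, so counts by peak weigh the stretches and are not separate measurements. Counted by peak, the median was 5.64 for the 87 distant peaks in these X stretches, and 58 of them had under 10. For the 115 on the autosomes the median was 169, and 73 had 100 or more. Each of these stretches with a summit at both ends lacked at least 1 number, so none is shown to be free of weaker or removed H3K4me3 peaks. Where the missing numbers lay within a stretch is unknown. A missing peak could lie near many of the autosomal sites. On X the stretch of 3.78 Mb lacked only 2 numbers for its 35 distant peaks, so the same does not hold for most of those.

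**Figure D3:**
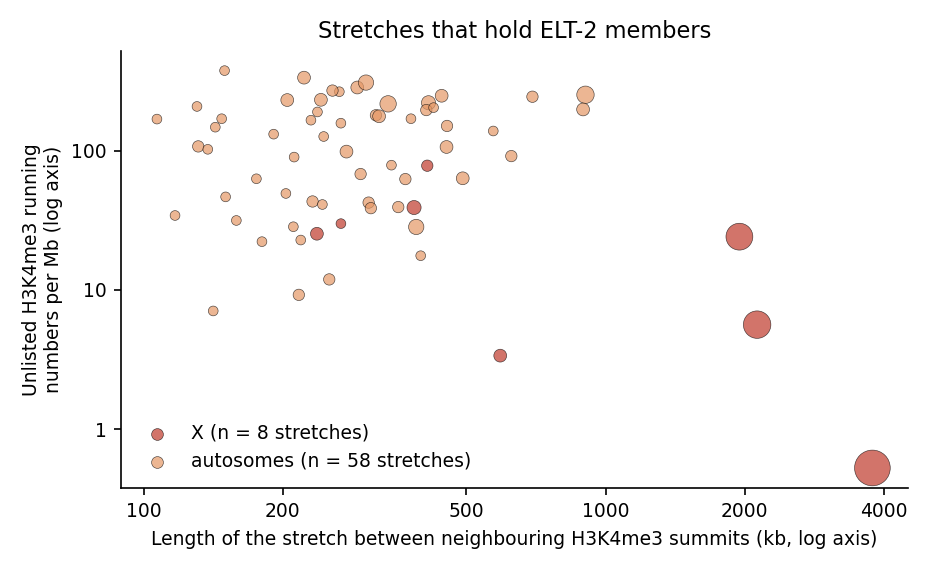
Each point is a stretch between neighbouring H3K4me3 summits that holds at least 1 distant ELT-2 peak: its length (kb, log axis) against the H3K4me3 running numbers missing from it per Mb (log axis), with larger points for more distant peaks. The 8 stretches on X run from 0.529 to 77.8 per Mb and the 58 on the autosomes from 7.07 to 374; stretches at a chromosome end have no second summit and are not drawn.

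The missing numbers on X also changed along the chromosome. Between the first H3K4me3 summit at 0.383 Mb and that at 4.71 Mb the running number advanced by 176, or 40.6 per Mb. From there to the last summit at 11.6 Mb it advanced by 20, or 2.90 per Mb. The stretch of 3.78 Mb with 35 distant ELT-2 peaks lacked 2 numbers. Right of 11.6 Mb the H3K4me3 numbering gives no value, and 65 distant peaks lie there. The ELT-2 running numbers were taken over X as a whole, so a change along X was not examined for them. Between successive distant peaks they advanced by 176 per Mb on X and 146 per Mb on the autosomes, beside 131 per Mb between successive remaining autosomal peaks. Of the numbers spanned, 5.74% on X and 6.63% on the autosomes were listed, beside 4.44% for the remaining autosomal peaks. These values cover only pairs of successive listed peaks of the same class. There were 146 pairs over 14.4 Mb on X, 67 over 6.91 Mb for autosomal distant peaks and 295 over 50.6 Mb for the remaining ones. A distant peak with remaining peaks on both sides did not enter, so the autosomal values weigh runs of distant peaks.

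Distant sites were found among the highest ELT-2 scores at about their share of the list, which was 43.1%. Of the 10 highest scores in the list 4 belonged to distant peaks, 1 on X and 3 on the autosomes, and of the 50 highest 21 did, 10 on X and 11 on the autosomes. On X the peak from 6606914 to 6607370 scored 336.67, the highest there, and lay 234 kb from H3K4me3. Its rank in the whole list was 5. The second on X, from 12872060 to 12872632, scored 188.02 at 1.27 Mb. The third, from 10480498 to 10480925, scored 170.69 at 1.12 Mb. A peak of 2281 bp from 16929528 to 16931808 scored 149.31 at 5.33 Mb. Those from 11515060 to 11515939 and from 8242494 to 8243488 scored 139.81 and 121.96. The other 4 of the 10 highest on X scored between 108.9 and 117.78.

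Of the 10 highest autosomal distant peaks 5 were on V, 4 on II and 1 on IV. The highest, on V from 8768444 to 8768849, scored 341.34 and lay 137 kb from H3K4me3. A second on V, from 18346052 to 18346420, scored 320.77 at 259 kb. On II the highest, from 1851770 to 1852101, scored 252.49 at 207 kb. A peak of 762 bp on V from 13212551 to 13213312 scored 192.58 at 82.5 kb. Another on II, from 12823420 to 12823888, scored 188.82 at 55.6 kb, and that from 915264 to 915699 scored 180.91. The single one on IV, from 15640876 to 15641282, scored 131.92 at 170 kb. The other 3 scored between 129.01 and 147.53.

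Over the whole set, scores of distant peaks were not distinguishable from those of the remaining ELT-2 peaks. The median score was 42.8 for the 152 on X (range 30.1 to 337) and 47.0 for the 117 on the autosomes (range 30.1 to 341), against 43.4 for the 355 remaining peaks (range 30.04 to 462). Scores above the upper quartile of the list, 61.3, were held by 40 distant peaks on X (26.3%, 95% Wilson interval 20.0 to 33.8) and 29 on the autosomes (24.8%, 17.8 to 33.3), against 87 remaining peaks (24.5%, 20.3 to 29.2) and 25.0% of the whole list. A least squares fit within chromosomes gave a difference of 0.08 in log2 score (distant minus remaining, n = 269 and 355 peaks, SE 0.08, 95% interval -0.07 to 0.23, p = 0.275, adjusted p = 0.275 over the 5 fits made). The score does not have a known zero, so this difference is not a fold change. On X the fit had only 7 remaining peaks, so it says little about X, and with X left out the difference was also 0.08 (n = 117 and 348 peaks). Without chromosome IV, where the distant peaks had a median of 40.7 against 45.2 for the remaining ones, the difference was 0.19 and passed the threshold (n = 245 and 283 peaks, adjusted p = 0.0456). On II the medians were 53.4 for distant and 40.1 for remaining peaks, and without II the difference was -0.00312.

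X and autosomal distant peaks did not differ detectably in score either (difference in log2 score -0.11, X minus autosomes, n = 152 and 117 peaks, SE 0.08, interval -0.28 to 0.05, p = 0.182, adjusted p = 0.275). Within X the score varied along the chromosome. The median was 45.5 in the left part, 48.0 in the middle part and 38.2 in the right part. The 13 peaks on X between 50 and 100 kb from H3K4me3 had a median score of 64.7, and the 49 beyond 2 Mb had 40.1. Across the 152, Spearman's rho between score and distance was -0.24. Across the 117 on the autosomes it was 0.19. These are descriptions across sites that share 1 list, and distances beyond 11.6 Mb on X are all measured to the same summit.

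Distant peaks on X were wider than those on the autosomes. The median width was 416 bp on X (range 236 to 2370) and 332 bp on the autosomes (range 209 to 2528), against 333 bp for the 355 remaining peaks. X widths were 1.23 times the autosomal ones (95% interval 1.11 to 1.38, log2 difference 0.30, SE 0.08, n = 152 and 117 peaks, least squares fit p = 0.000152, adjusted p = 0.000761). Widths above the upper quartile of the list were found in 59 of 152 on X (38.8%, Wilson interval 31.4 to 46.7) and 25 of 117 on the autosomes (21.4%, 14.9 to 29.6), beside 25.0% of the whole list. The difference was smaller and did not pass the threshold at a distance limit of 100 kb (log2 difference 0.20, n = 139 and 52 peaks, adjusted p = 0.159) or among peaks scoring above the list median (0.18, n = 73 and 65 peaks, adjusted p = 0.251). The contrast is of 1 chromosome with 5, so distance from H3K4me3 and the chromosome cannot be told apart in it. All 159 ELT-2 peaks of X set against all 465 autosomal ones, a comparison added after the data were seen, gave 0.32. Without the 65 X peaks right of the last H3K4me3 summit, also an added comparison, the distant peaks on X and the autosomes differed by 0.22 (n = 87 and 117 peaks, adjusted p = 0.0377). The 7 remaining X peaks had a median width of 299 bp.

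Of 14 distant peaks wider than 1000 bp, a size chosen after the values were seen, 11 were on X, which held 56.5% of all distant peaks. Such widths made up 7.24% of the distant peaks on X and 2.56% of those on the autosomes, against 1.69% of the remaining peaks and 3.21% of the whole list. These shares were not tested. Of the 11 on X, 8 lay right of the last H3K4me3 summit, where 65 of all 152 distant peaks on X lay. The widest on X, from 12471266 to 12473635, was 2370 bp with a score of 36.13. The widest on the autosomes, on V from 20667198 to 20669725, was 2528 bp with a score of 56.36. Across the distant peaks on X Spearman's rho between score and width was 0.05, where it was 0.23 on the autosomes and 0.24 for the remaining peaks. The summit lay near the middle of the peak in each class, at a median of 48.8% of the width on X, 50.9% on the autosomes and 50.6% in the remaining peaks. Without peaks over 1000 bp the log2 width difference between X and the autosomes was 0.23 (n = 141 and 114 peaks, adjusted p = 0.0018), an alternative added after the data were seen.

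Set against the remaining ELT-2 peaks of the same chromosomes, distant peaks were not detectably wider (log2 difference 0.07, n = 269 and 355 peaks, SE 0.06, 95% interval -0.05 to 0.18, least squares fit p = 0.260, adjusted p = 0.275). On X that fit had only 7 remaining peaks to set against 152 distant ones, with median widths of 299 and 416 bp, so it says little about X. With X left out the log2 difference was 0.03 (n = 117 and 348 peaks). Without the chromosome term the difference was 0.23 and passed the threshold (n = 269 and 355 peaks, adjusted p = 1.73e-05). In that fit 152 of the 269 distant peaks and 7 of the 355 remaining peaks were on X.

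**Figure D4:**
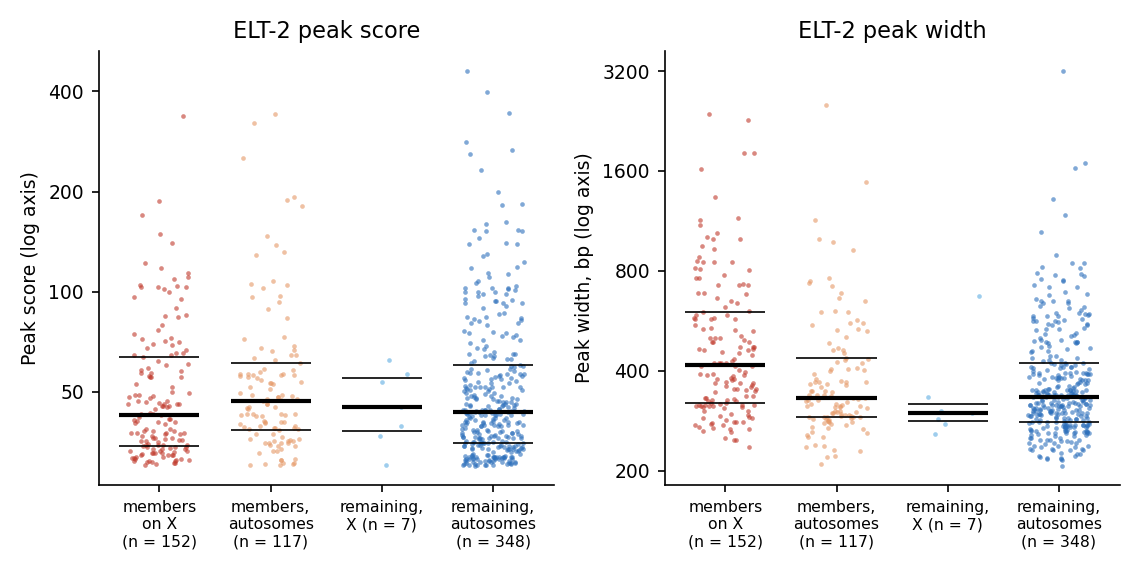
Peak score (left) and peak width in bp (right), both on log axes, for distant ELT-2 peaks on X and on the autosomes and for the remaining peaks on X and on the autosomes; each point is 1 peak, the thick line the median and the thin lines the quartiles. Median scores lie between 42.8 and 47.0, and the median width is 416 bp for distant peaks on X and 332 bp for those on the autosomes.

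Distant ELT-2 peaks more often had another ELT-2 summit close by. A second summit within 5000 bp was found for 41 of 152 on X (27.0%, Wilson interval 20.6 to 34.5) and for 32 of 117 on the autosomes (27.4%, 20.1 to 36.1), against 51 of the 355 remaining peaks (14.4%, 11.1 to 18.4) and 19.9% of the whole list. The odds were 2.26 times those of the remaining peaks (95% interval 1.17 to 4.37, logistic fit with chromosome as a term, n = 269 and 355 peaks, p = 0.0155, adjusted p = 0.0388). Chromosome V contributed most among the autosomes, with 18 of 53 distant and 9 of 79 remaining peaks having such a neighbour, and II had 10 of 29 and 15 of 96. The other 3 autosomes did not have this excess: the counts were 4 of 24 distant and 13 of 72 remaining peaks on IV, 0 of 7 and 4 of 37 on III, and 0 of 4 and 10 of 64 on I. The 7 remaining peaks on X had none. Peaks of a close group share their distance class, which the standard errors of the fit allowed for. The Wilson intervals did not allow for it. The 41 peaks on X formed 20 groups and the 32 on the autosomes 15, so these intervals are too narrow. The call was lost under 8 of the 16 alternatives tried, among them a distance limit of 25 kb or 100 kb (log2 odds ratio 0.47 and 0.14 beside 1.18) and the absence of chromosome II, V or X (1.04, 0.74 and 1.08). The direction was the same under each of the 16.

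**Figure D5:**
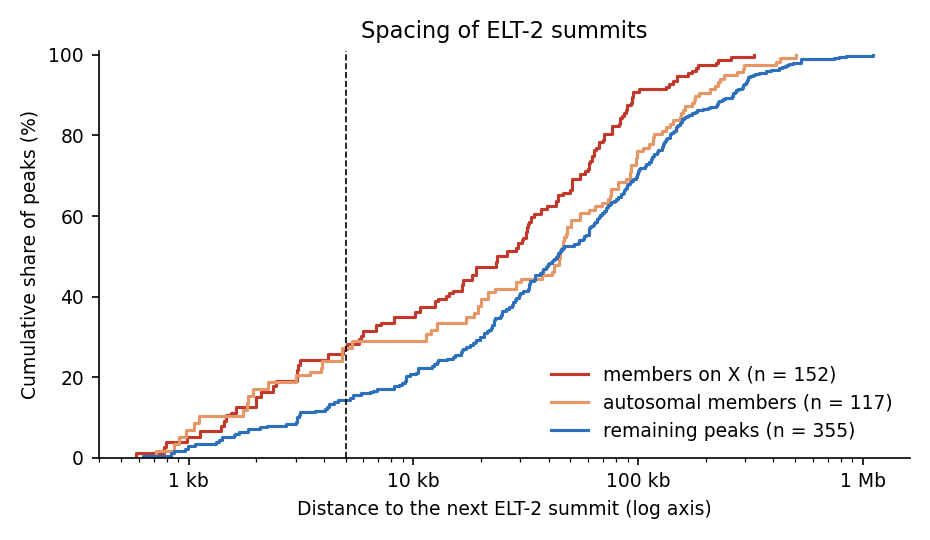
Cumulative share of ELT-2 peaks (%) by the distance from their summit to the next ELT-2 summit (log axis), for distant peaks on X, distant peaks on the autosomes and remaining peaks, with a dashed line at 5000 bp. At that line the curves stand at 27.0%, 27.4% and 14.4%.

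The close neighbours formed 35 groups of distant peaks, 20 on X and 15 on the autosomes, and no group mixed distant with remaining peaks. X had 19 pairs and 1 group of 3, and the autosomes had 14 pairs and 1 group of 4. The group of 3 on X comprised a peak from 10477115 to 10477874 with a score of 31.0, one from 10478986 to 10479608 with 104.88 and one from 10480498 to 10480925 with 170.69. The group of 4 on V comprised peaks starting at 13372622, 13373664, 13377152 and 13381054, with scores of 34.32, 34.52, 96.35 and 40.6. The rightmost peak had the highest score of the group on X, and the third from the left had it on V.

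On X the highest and second highest scores of a group had medians of 55.6 and 36.0, and on the autosomes 62.6 and 46.0. The difference between them ranged from 0.480 to 107 on X and from 0.970 to 286 on the autosomes. A neighbour within 5000 bp was present for 3 of the 10 highest distant peaks on X and for 4 of the 10 highest on the autosomes. The peak with a score of 341.34 on V had its neighbour 716 bp away, from 8769144 to 8769507, with a score of 54.97. The peak with a score of 252.49 on II had one 903 bp away with a score of 68.73, and that with 188.82 had one 977 bp away with 53.36. On X the neighbour of the peak with 139.81 was 1620 bp away and scored 32.57. Distant peaks with a neighbour had median scores of 42.0 on X and 53.0 on the autosomes, and those without one had 43.0 and 43.1. Their median widths were 536 bp on X and 348 bp on the autosomes with a neighbour, and 387 and 323 bp without. These medians were not tested.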

How the data were processed

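The authors deposited 1 list of peaks and 1 of summits for each antibody, with the peak caller's score for every peak. Per the submitters' processing notes, the ChIP reads went through MACS2 2.0.9, Bowtie 1.1.0 and bedtools on ce10; order and settings are not stated there, nor how libraries were merged. The list names carry tags for removal of IgG, blacklisted and HOT (highly occupied) regions, which would take such sites out of both lists. The chromatin was fixed in 1% formaldehyde for 10 min, per the labels' protocols. The list names also carry the tag gt30, read here as scores above 30. The lowest scores were 30.04 (ELT-2) and 30.01 (H3K4me3). Weaker peaks would then be absent from both lists, so distant sites may lie near unlisted H3K4me3 peaks.

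Distances ran between summits on 1 chromosome. Close groups were ELT-2 summits chained within 5000 bp. Log2 scores and log2 widths were compared by least squares and neighbours by a logistic fit over peaks, with standard errors robust to dependence within close groups and two-sided p-values from the normal distribution (statsmodels 0.14.6, pandas 2.3.3, Python 3.11.15). Distant against remaining peaks had chromosome as a term. The 5 fits were held to an adjusted p of 0.05 (Benjamini-Hochberg, over all of them). The least squares and logistic fits of distant against remaining peaks were also run on simulated data. Those data had no dependence within close groups, so the allowance for it in the standard errors was not checked. Peaks are not replicates. The members, the fits and the alternatives were chosen with earlier results of these data known. Sites were named by score (the 10 highest on X and on the autosomes), by distance (the 3 farthest of each, and those within 1000 bp of the limit), and as members of groups of 3 or more or of the longest stretches.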

Additional observations from a re-analysis of the deposited data

How the results depend on the processing

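The 5 fits were repeated under 16 planned settings and 3 added after the data were seen, where each could be applied, which gave 78 values. Of these 62 kept their direction and their side of the threshold, and 16 did not. The difference in log2 score (distant minus remaining) was -0.01 among ELT-2 peaks above the median score, -0.07 with distances to H3K4me3 peaks above their median score and -0.00312 without chromosome II, and it passed the threshold at 0.19 without chromosome IV. The difference in log2 width (distant minus remaining) was -0.04 at a limit of 25 kb and passed the threshold at 0.23 with no chromosome term. The log2 odds ratio of a close neighbour was 1.18 and did not pass the threshold at a limit of 25 kb (0.47) or 100 kb (0.14), among ELT-2 peaks above the median score (1.68), with H3K4me3 peaks above theirs (0.28), without chromosome II (1.04), V (0.74) or X (1.08), and for neighbours within 10000 bp (0.80). The difference in log2 width between X and autosomal distant peaks was 0.20 at a limit of 100 kb and 0.18 among ELT-2 peaks above the median score. Over the alternatives of each fit, adjusted p ran between 0.0456 and 0.969 for the score of distant against remaining peaks, 1.73e-05 and 0.811 for their width, 0.00753 and 0.831 for the close neighbour, 0.0728 and 0.900 for the score of X against autosomal distant peaks, and 5.73e-07 and 0.251 for their width. Each of these p-values was adjusted over the fits made under its own setting, which were fewer than 5 in some settings. They are therefore not strictly alike across settings. The 2 filters on score leave fewer peaks or fewer H3K4me3 summits. The cause was not tested for any of these changes, those under the 2 filters included. The number of distant peaks was 374 at 25 kb, 191 at 100 kb, 375 with H3K4me3 peaks above their median score and 267 by the gap between peak edges. No paired analysis was possible because each antibody has 1 list with no values per library, and no library could be left out for the same reason. Read depth is unknown here, so the absence of a listed peak does not show the absence of a signal.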
